A study of Drosophila melanogaster with 3 samples.

Results

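The regions described here are the peaks of Drosophila CG3838 protein, now called brickwall (brwl), that lie between genes and away from promoters. They were chosen by position alone from the authors' thresholded peak list on the dm6 genome. A peak is 1 summit of that list, and it was kept when its summit lay inside no annotated gene and more than 500 bp from every annotated transcription start site (TSS). Of the 2239 peaks, 213 met both conditions, which is 9.51% (exact 95% Clopper-Pearson interval 8.33 to 10.8%, counting error only). Another 655 summits also lay outside genes but within 500 bp of a TSS, so most of the 868 out-of-gene summits belonged to promoter windows. The peaks come from chromatin immunoprecipitation and sequencing of whole embryos aged 0 to 24 h, both sexes together, from the strain CG3838-GFP. This is a stable transgenic line that makes CG3838 fused to green fluorescent protein at its C-terminus, and the precipitation used an antibody to GFP, although the antibody field of the labels reads CG3838. All 3 samples are biological replicates of this 1 group, so embryonic tissues and stages are mixed in every sample. No embryos without the tagged protein were analysed here, so binding of the tagged protein and the signal a pull-down gives at open chromatin cannot be told apart.

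In flies, as in other animals, sequence between genes holds enhancers, insulators and silencers that act on promoters over a distance, and it also holds the upstream parts of promoters. A factor bound there can act on the gene to its left, the gene to its right or neither, so position alone does not name a target. Genes that pattern the embryo, such as the pair-rule and Hox genes, are known for long flanking regions with many separate enhancers. Peaks are therefore named by the nearest gene body on each side, and a protein-coding gene farther out is added for some whose neighbour is a non-coding RNA.

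The sequences below span 100 bp on each side of the summit of 8 peaks to which the results return, read from the plus strand of dm6 (RefSeq assembly) and written 5′ to 3′. Capitals mark matches, on either strand, to any of 11 short motifs searched, and the rest is in lower case. The motifs were TATCGATA (the DNA replication-related element, bound by DREF), CGATA (the core bound by the insulator protein BEAF-32), GGTCACACT (the core of the promoter element Motif 1), the E-boxes CAGCTG and CACGTG (bound by helix-loop-helix proteins), GAGAG (bound by GAGA factor), TGATAA (bound by GATA factors), TAATTA (homeodomains), TATAAA (the TATA box), CAGGTA (Zelda) and AAATAT (an AT-rich word). The letters CGATA lie inside TATCGATA, so a match to the longer word is also one to the shorter. The first 2 peaks had the highest signal of all, and the next 3 came high in every replicate beside developmental genes. The peak from slp1 to slp2 stands for segmentation genes and that from Asator to zfh2 for homeobox genes. NijA to CG43245 lies far from any start site.
jp to lncRNA:CR44149, chr2L:9567605-9567805: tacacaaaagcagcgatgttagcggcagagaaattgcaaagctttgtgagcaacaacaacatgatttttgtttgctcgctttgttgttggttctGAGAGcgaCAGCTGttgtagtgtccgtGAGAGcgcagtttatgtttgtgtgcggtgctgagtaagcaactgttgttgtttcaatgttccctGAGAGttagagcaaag
Hacd1 to Rh5, chr2L:12007031-12007231: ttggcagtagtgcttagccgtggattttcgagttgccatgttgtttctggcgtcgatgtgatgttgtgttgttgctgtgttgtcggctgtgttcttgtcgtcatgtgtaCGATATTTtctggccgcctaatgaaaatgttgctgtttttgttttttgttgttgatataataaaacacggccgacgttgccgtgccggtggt
dnt to CG13086, chr2L:19363714-19363914: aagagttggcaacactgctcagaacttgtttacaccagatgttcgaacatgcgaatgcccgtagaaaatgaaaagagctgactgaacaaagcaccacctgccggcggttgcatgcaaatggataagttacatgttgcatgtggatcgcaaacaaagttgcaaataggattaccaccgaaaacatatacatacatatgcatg
C15 to sp3, chr3R:21520277-21520477: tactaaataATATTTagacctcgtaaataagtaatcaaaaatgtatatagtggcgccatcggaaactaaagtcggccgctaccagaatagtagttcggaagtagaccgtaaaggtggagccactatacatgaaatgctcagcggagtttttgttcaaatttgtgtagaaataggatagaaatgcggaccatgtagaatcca
lncRNA:CR45643 to tara, chr3R:16224439-16224639: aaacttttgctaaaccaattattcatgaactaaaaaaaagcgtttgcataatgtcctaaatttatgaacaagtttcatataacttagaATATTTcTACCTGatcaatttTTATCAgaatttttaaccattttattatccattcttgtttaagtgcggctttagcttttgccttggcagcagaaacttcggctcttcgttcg
slp1 to slp2, chr2L:3832418-3832618: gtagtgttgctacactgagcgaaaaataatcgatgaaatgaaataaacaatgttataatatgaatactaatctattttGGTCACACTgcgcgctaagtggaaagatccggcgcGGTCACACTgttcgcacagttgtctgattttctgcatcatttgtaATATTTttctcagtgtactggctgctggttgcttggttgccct
Asator to zfh2, chr4:497788-497988: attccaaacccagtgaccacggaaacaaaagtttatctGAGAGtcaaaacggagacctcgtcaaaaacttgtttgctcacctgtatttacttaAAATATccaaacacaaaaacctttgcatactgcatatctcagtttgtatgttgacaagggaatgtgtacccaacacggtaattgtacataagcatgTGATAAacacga
NijA to CG43245, chr3L:10752708-10752908: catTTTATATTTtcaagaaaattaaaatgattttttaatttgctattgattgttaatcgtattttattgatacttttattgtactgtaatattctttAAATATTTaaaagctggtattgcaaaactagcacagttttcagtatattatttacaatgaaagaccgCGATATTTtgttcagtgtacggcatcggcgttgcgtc
The window beside jp held CAGCTG once and GAGAG at several places, whereas that between dnt and CG13086 held none of the 11 motifs. The slp1 to slp2 window held GGTCACACT at 2 places and was the only one of the 213 member windows with that motif. The window from NijA to CG43245 had a GC content of 26.9%, against a mean of 38.1% over all members.

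Each region carries a signal value that is the authors' own, on a scale the sources used here do not state. It served to rank and describe regions within 1 list. The replicate lists differ in level, with medians over the 213 peaks of 42.2, 61.0 and 47.7 in replicates 1, 2 and 3, so single values are not compared across lists and ranks within each list are given instead. The lists hold no read counts, so the depth of the replicates is unknown. The 2239 peaks are exactly the strongest of 15592 regions called on the 3 replicates pooled. Where a replicate list is used, its 2239 strongest regions were taken, and overlap by at least 1 bp counted as finding a peak. Lists of replicates 1 and 2 held 30000 regions each and that of replicate 3 held 21147, of which 25 were mitochondrial. Mitochondrial regions keep their places in the replicate 3 ranks given below.

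Peaks were sparser in intergenic sequence than in introns or promoters. Intergenic sequence more than 500 bp from a TSS made up 36.5 Mb without the Y chromosome, or 27.2% of the length, and held 5.84 peaks per Mb. Distal intronic sequence, defined by the same distance to start sites, held 12.9 peaks per Mb, promoter windows 70.1 and distal exons 2.68. The 3 replicate lists each gave this order for the first 3 classes: intergenic density was 5.62, 6.53 and 5.59 per Mb (mean 5.91 ± 0.531, SD, n = 3), intronic density averaged 12.9 ± 0.959 and promoter density 69.4 ± 3.50. Intergenic and intronic densities did not overlap between replicates. Among the strongest regions, 205, 238 and 204 were intergenic in replicates 1, 2 and 3, a share of 9.63% ± 0.864 (SD, n = 3). Replicate 2 stood above the other two, which were nearly equal. Of the 967 peaks outside promoter windows, the 213 were 22.0%, while intergenic sequence was 31.5% of the length outside those windows.

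Weak intergenic regions were common and strong ones less so. The pooled list held 2329 regions that met the same position rule, of which 213 passed the authors' threshold, or 9.15%. Over all pooled regions 14.4% passed. The share was 22.1% for promoter regions, 12.4% for distal intronic regions and 3.55% for distal exonic regions. Regions under the threshold lay farther from start sites as well: the 2116 weaker intergenic regions had a median distance of 3181 bp to the nearest TSS, against 2208 bp for the 213 peaks. Intergenic bases taken one by one lay at a median of 5942 bp.

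Signal over the 213 peaks ran from 103.6 to 1633, with a median of 141.5 and quartiles of 117.6 and 190.8. The strongest lay beside the tagged gene itself. Its summit, at 9567705 on 2L, was 955 bp from jp, which encodes junctophilin, a protein that ties the plasma membrane to the endoplasmic reticulum, and 450 bp from lncRNA:CR44149. The nearest coding gene on that side was brwl, 1185 bp away. Its region had a signal of 694.8 in replicate 1, 859.8 in replicate 2 and 424.3 in replicate 3, where it ranked 1, 1 and 21. In replicate 3 mitochondrial regions came first, and the strongest region on the chromosome arms ranked 20, with a signal of 439.9. All 3 values of the region beside jp were the highest among the 213 peaks. The region is an interval from 9567326 to 9569610 that holds several summits, including the promoter peak of lncRNA:CR44149 with a signal of 1796, the highest of the whole list. Since the replicate values belong to the interval, they are shared with those summits. The labels describe an insertion targeting CG3838, and extra copies of this locus cannot be told apart from bound chromatin in these files.

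Between Hacd1, an enzyme of very-long-chain fatty acid elongation, and Rh5, the blue-sensitive rhodopsin of some photoreceptors, the second strongest summit lay 1022 bp from Rh5 at 12007131 on 2L. Its pooled signal was 799.8, and the replicates gave 325.7, 337.4 and 133.3. Within the lists it ranked 13, 21 and 135, and each of the 7 strongest peaks had its lowest place in the list of replicate 3. A further summit 204 bp away, with a pooled signal of 172.2, shared the same replicate region. A separate peak nearer Hacd1 had a pooled signal of 467.1 and replicate values of 116.4, 210.2 and 141.9. On the other side of Rh5 a group of 3 peaks stretched towards lncRNA:CR44588, the strongest with a pooled signal of 565.8 and replicate values of 204.4, 248.4 and 117.7. So the gene for this rhodopsin had intergenic peaks on both sides, 6 in all.

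A pair of neighbouring Polycomb group genes was flanked as well. Su(z)2 and Psc encode related proteins, and Psc is a subunit of Polycomb repressive complex 1. In the gap from Su(z)2 to CG13323 on 2R the summit at 13035359 had a pooled signal of 751.2 and replicate values of 206.9, 350.3 and 188.9. It lay 27448 bp from the end of Su(z)2, 9336 bp from CG13323 and 11897 bp from the nearest TSS. In the gap from CG13321 to Psc there were 3 peaks, of which the strongest had a pooled signal of 372.2 and replicate values of 105.3, 142.6 and 116.2. A second summit there, with a pooled signal of 209.4, belonged to the same replicate regions and took the same values. The third had 141.7 in the pooled list and was among the strongest regions of 2 replicates.

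The peak between dnt, a receptor of the Ryk family that binds Wnt proteins, and CG13086 had a pooled signal of 566.6 and replicate values of 197.6, 279.0 and 88.9. Its ranks were 36, 34 and 327. The summit lay 587 bp from one gene and 561 bp from the other, both transcribed away from it. The peak between C15, a homeobox gene of distal leg development, and sp3 had a pooled signal of 475.7 and replicate values of 155.7, 165.5 and 153.8. It ranked 61, 118 and 102. Upstream of tara, which encodes the transcriptional coregulator Taranis, 2 peaks flanked lncRNA:CR45643. The farther one had a pooled signal of 544.2 and replicate values of 142.8, 280.7 and 121.8, and the nearer one, 1112 bp from tara, had 354.5 with 92.0, 158.0 and 101.2. Their ranks were 78, 33 and 164 for the first and 209, 136 and 234 for the second.

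Several other strong peaks found in every replicate lay beside genes named only by a number, and a few beside known genes. The peak between ssp3, 945 bp away, and lncRNA:CR44740, 795 bp away, had a pooled signal of 666.4, with 206.0, 327.5 and 141.6 in the replicates. A peak on 2R between blw, the alpha subunit of mitochondrial ATP synthase, and CycB, the mitotic cyclin B, had 452.0 with replicate values of 127.9, 207.3 and 116.8. Both genes are transcribed towards it, so the summit lay beyond their 3′ ends, 823 and 518 bp away. On the X there were 3 such peaks. The one with a pooled signal of 423.6 lay 533 bp from CG17896 and 586 bp from CG17778. That with 402.4 lay 1636 bp from CG43347 and 529 bp from Rab9Db, a member of the Rab GTPase family, and that with 315.4 lay 1384 bp from CG3149 and 534 bp from lncRNA:CR42794. A peak of 371.9 lay 722 bp from RasGAP1, a Ras GTPase-activating protein, and 1376 bp from CG10809, and a peak of 334.8 lay 600 bp from CG46304 and 1202 bp from CG10428. The peak between CG14762 and mir-4981, 646 and 848 bp away, had 318.9, and the next coding gene on the side of mir-4981 was the eye homeobox gene Optix at 16882 bp. The remaining 2 of the strongest 20 belong to gaps with several peaks. Over all 20, ranks in the replicate lists ran from 1 to 1347, the last being that of the peak between CG46304 and CG10428 in replicate 3.

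**Figure D1:**
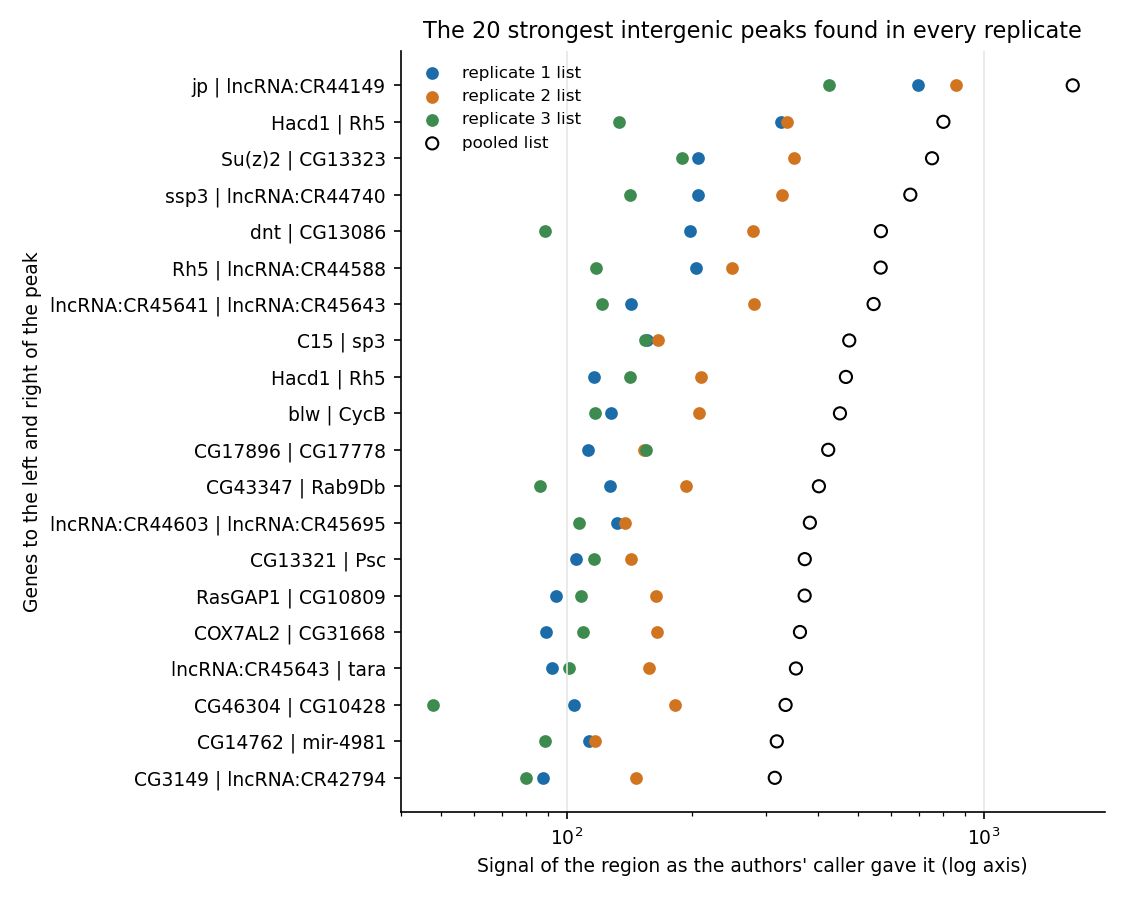
The 20 intergenic peaks of highest signal that were among the strongest 2239 regions of every replicate, 1 row each, with the flanking genes on the vertical axis. The horizontal axis is the authors' signal on a log axis, filled points are the 3 replicate lists and open circles the pooled list. The peak beside jp stands apart at 1633 in the pooled list and is also the highest row in each replicate list. The 4 lists are not on 1 scale, so points of 1 colour can be compared with each other and not with other colours.

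Most gaps between genes held none of these peaks, and most of those with a peak held only 1. The 213 peaks fell in 171 gaps, of which 143 held 1, 20 held 2, 5 held 3, and 1 each held 4, 5 and 6. The largest group lay between NijA, which encodes the adhesion protein Ninjurin A, and CG43245 on 3L. Its 6 peaks had pooled signals of 108.5 to 222.8, and the strongest was found in every replicate with values of 60.2, 65.0 and 93.4. The gap is 75047 bp long. Next to scyl, an inhibitor of TOR signalling induced by hypoxia, 5 peaks stretched towards lncRNA:CR44720 with pooled signals of 107.4 to 165.6. Of these, 1 was found in all 3 replicates, at 66.0, 78.3 and 63.5, and 2 others, 232 bp apart, shared a replicate region.

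In the gap between lncRNA:CR44603 and lncRNA:CR45695 there were 4 peaks, all found in every replicate. The flanking coding genes were RFeSP, the Rieske subunit of respiratory complex III, and chinmo, a BTB zinc finger protein that sets the birth-order identity of neurons. Their pooled signals were 382.8, 207.0, 169.5 and 138.2, and the strongest had 132.0, 137.9 and 106.9 in the replicates. A group of 3 lay between COX7AL2, a cytochrome c oxidase subunit of the COX7A type, and CG31668. The strongest of these had 362.4 with replicate values of 89, 164.8 and 109.5, and the other 2, at 141.1 and 112.0, were found in 2 replicates each. The last group of 3 lay between lncRNA:CR45937 and lncRNA:CR45936, with pooled signals of 106.4 to 163.5. Over the whole set, 78 peaks (36.6%) had another intergenic peak within 10000 bp, and the median distance to the nearest was 32424 bp.

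Peak density fell with distance from start sites. From 500 to 1000 bp there were 50 peaks, or 17.7 per Mb of such sequence, and the replicate lists gave 16.6, 19.5 and 15.2. From 1000 to 2000 bp the 45 peaks made 9.86 per Mb (replicates 10.7, 11 and 10.5), and from 2000 to 5000 bp the 70 peaks made 7.80 (6.69, 8.02 and 6.69). Between 5000 and 10000 bp there were 28 peaks at 3.91 per Mb (3.49, 4.88 and 5.02), and beyond 10000 bp 20 peaks at 1.55 (1.86, 2.01 and 1.31). In every replicate list the nearest bin was the densest and the farthest the sparsest. Distal intronic peaks also thinned out, from 33.1 to 3.14 per Mb, and were denser than intergenic peaks in each of the 5 bins. Repeat-rich sequence far from genes counts in full in these lengths, and how much of it short reads could be placed on was not tested.

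**Figure D2:**
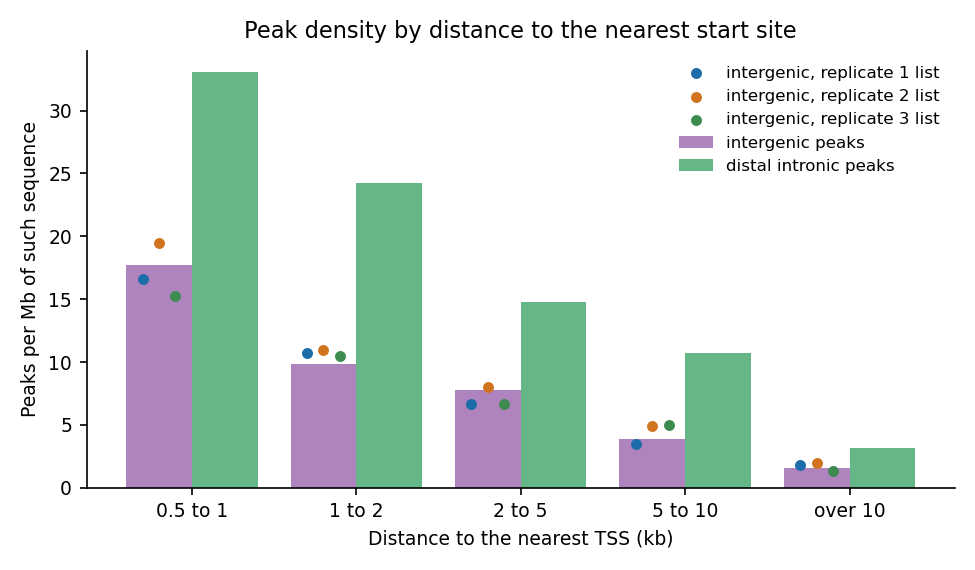
Peaks per Mb of intergenic (purple) and distal intronic (green) sequence, by distance in kb to the nearest TSS of any gene. Bars are the thresholded list and points the intergenic regions among the strongest 2239 of each replicate; intergenic density falls from 17.7 to 1.55 per Mb and lies under the intronic bar in each bin.

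At the edge of the definition, the members closest to a TSS lay 506 bp from Sox21b, a Sox family transcription factor gene (pooled signal 153.8), 507 bp from CG6040 (109.2) and 523 bp from CG10479 (227.9). Just inside the promoter limit and so left out were summits 500 bp from by, which encodes a tensin (137.3), 494 bp from CG9743 (270.3) and 489 bp from CG9706 (115.8). Signals on the 2 sides of the limit overlapped. At the other end, 3 of the 5 farthest peaks lay in the NijA to CG43245 gap, 34410, 31856 and 19117 bp from the nearest TSS. Another lay 25342 bp from a TSS between lncRNA:CR43681 and salm (pooled signal 122.3, replicates 40.9, 41.5 and 33.8). Its coding neighbours were salr and salm, a pair of spalt zinc finger genes. The last was 18158 bp from a TSS between Caf1-180 and oc, the head gap gene orthodenticle (117.4, replicates 33.5, 64.5 and 24.2). The peak near salm was found among the strongest regions of 1 replicate and that near oc in 2.

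The gap around a peak had a median length of 8893 bp, and the median distance was 1542 bp to the nearer flanking gene and 6389 bp to the farther one. Genes pointing away from each other flanked 63 peaks, at 8.52 per Mb of eligible sequence in such gaps. Gaps between genes pointing towards each other held 47 peaks at 5.06 per Mb, and gaps between genes on the same strand held 102 at 5.55. Gaps of the first kind have start sites at both ends, and the kinds were not compared at equal distance to a TSS. Relative to the nearest TSS, 134 summits (62.9%) lay upstream. Sequence inside genes, and so directly downstream of start sites, was excluded by the definition. The upstream share of eligible sequence was not computed. Counted once for each peak and side, the flanking gene was protein-coding 285 times, a non-coding RNA gene 131 times and a tRNA gene 10 times. These were 66.9%, 30.8% and 2.35% of the flanks, whereas the same classes were 76.4%, 18% and 1.59% of all annotated genes. The 2 sets of shares are not alike, since a gene beside several peaks counts several times among the flanks. The shares among genes that border eligible sequence were not computed. Both flanks were protein-coding for 97 peaks.

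At least 1 flanking gene had a thresholded peak at its own promoter for 55 of the 213 peaks (25.8%). The gene of the nearest TSS had one for 32 peaks (15%). These shares per peak were not computed for intergenic sequence at large, and they are not comparable with the shares per gene that follow. Taking the nearest protein-coding gene on each side, beyond a non-coding neighbour where there was one, the peaks had 295 distinct genes, and 42 of these had a promoter peak, or 14.2%. The share was 11.6% over all 13968 protein-coding genes and 9.79% over the 7959 that border intergenic sequence of the same kind. The 32 included peaks near aop, the ETS repressor Yan, and near Atf3, a bZIP transcription factor whose promoter peak, at 584.5, was the highest of the 32; both were picked after their values were seen. A promoter peak lay within 10000 bp of 51 peaks (23.9%), and the median distance to one was 26427 bp. It lay within 1000 bp of 10 peaks (4.69%). Some of these, such as those beside stv and CG3961, shared their replicate region with another peak. Both genes count among the 42, so there the promoter peak and the intergenic peak may be parts of 1 region.

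Of the 11 gene lists examined, that of segmentation and homeotic genes had the most intergenic peaks nearby, counting the nearest coding gene on each side. Of the 44 such genes that border eligible sequence, 10 had such a peak (22.7%), against 3.71% of all protein-coding genes. Their gaps are long, 14.9 kb of eligible sequence a gap against 6.27 kb overall. Per Mb of that sequence the difference was smaller, 8.73 peaks against 6.16, and the replicates gave 8.73, 10.5 and 6.98 against 5.93, 6.88 and 5.90. All 3 replicates were higher for the list. The list was written with earlier results of these data known, so this is a description only.

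The strongest peak of that list lay between slp1 and slp2, a pair of forkhead genes that act in segmentation, 5419 and 4322 bp away. Its pooled signal was 311.4 and its replicate values were 96.0, 143.7 and 75.2. A peak 8330 bp from abd-A, a Hox gene of the abdomen, and 1716 bp from lncRNA:CR45750 had 193.6. Its replicate values were 65.5, 60.5 and 61.0 and its ranks 478, 1067 and 792. The gap between Sox21b and D, a Sox gene also called Dichaete, held 2 peaks. The first is the edge member above, with replicate values of 59.5, 79.7 and 24.4. It ranked 586, 613 and 5457, so it was outside the strongest regions in replicate 3. Of the 10 peaks, 4 were found in every replicate.

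For the 23 proneural and Sox genes the density was 12.4 per Mb from 4 peaks, with replicates at 15.6, 12.4 and 9.33. The density rests on few peaks, which lay beside SoxN, Sox21a, Sox21b and D, and D is in both lists. The peak 16459 bp from SoxN and 5880 bp from lncRNA:CR45365 had 146.0 (replicates 40.8, 56.4 and 45.3). That between Sox21a and Sox21b had 121.9 (40.0, 42.2 and 36.9). NK and other homeobox genes had 7 peaks at 6.84 per Mb, close to 6.16 for all genes, led by those beside C15 and Optix. Next in that list came the peak on chromosome 4 between Asator and zfh2, a zinc finger homeodomain gene, with 257.3 and replicate values of 62.7, 111.5 and 84.1.

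Cell adhesion and axon guidance genes had few peaks for the length of their gaps. These gaps, 13.3 kb each, held 2 peaks, or 0.987 per Mb, and 1.97, 1.97 and 0.987 in the replicates. All 3 were under the densities of 5.90 to 6.88 for all genes. The stronger lay 9933 bp from dpr17, an immunoglobulin domain gene, and only 230 bp from CG4702 (176.3, replicates 56.2, 80.0 and 43.2). The other lay 12250 bp from hbs, hibris, which acts in muscle fusion (116.5, replicates 23.2, 52.1 and 35.8). Chemoreceptor genes had 6 peaks at 5.11 per Mb. The strongest (192.5) lay 10025 bp from Ir68a, with lncRNA:CR44714 642 bp and scyl 6064 bp away on the other side. The next had Or56a as its nearest coding gene on one side, 54466 bp away, and CG8517 only 127 bp away on the other (175.2), and another lay 211 bp from Gr89a (141.5). The Notch and E(spl), ligand, ecdysone, muscle and cuticle lists had 1 peak each. Per Mb of their eligible sequence this made 7.89, 2.74, 6.82, 6.46 and 3.41 in that order, against 6.16 for all genes. Each of these densities rests on 1 peak. The Notch and ligand peaks lay between E(spl)mbeta-HLH and E(spl)malpha-BFM (155.6) and 1354 bp from Pvf3 (104.3). The ecdysone peak lay 19005 bp from Blimp-1, with Eaf6 nearer at 3678 bp (145.7). The muscle and cuticle peaks lay 85 bp from Zasp52 (126.6) and 771 bp from Cpr76Ba (166.0). No intergenic peak lay beside the 52 ribosomal protein genes with eligible sequence, where replicates 2 and 3 had 1 region each. That sequence came to 0.585 Mb, so those replicates each gave 1.71 per Mb.

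Among the strongest regions of each replicate, intergenic signal was a little under promoter signal. These regions were taken by the same signal, so weaker regions of either class do not enter the medians. The median log2 signal was 5.44, 5.86 and 5.59 for intergenic regions and 5.51, 5.91 and 5.74 for promoter regions. The difference was -0.06, -0.05 and -0.15 (mean -0.09 ± 0.06, SD, n = 3), lower in 3 of 3 replicates. The exact sign-flip permutation test over replicates, two-sided, gave p = 0.25, the smallest that 3 replicates allow. Over the replicate regions that overlap a thresholded peak the differences were -0.09, 0.03 and -0.19 (exact p = 0.5), so replicate 2 then went the other way. Against distal intronic regions the differences were 0.06, 0.00 and -0.04 (mean 0.00 ± 0.05, exact p = 0.75), so the sign changed between replicates. Over regions that overlap a thresholded peak they were 0.01, 0.03 and 0.04, above 0 in 3 of 3 (exact p = 0.25, the smallest possible), with a mean of 0.02 ± 0.02.

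**Figure D3:**
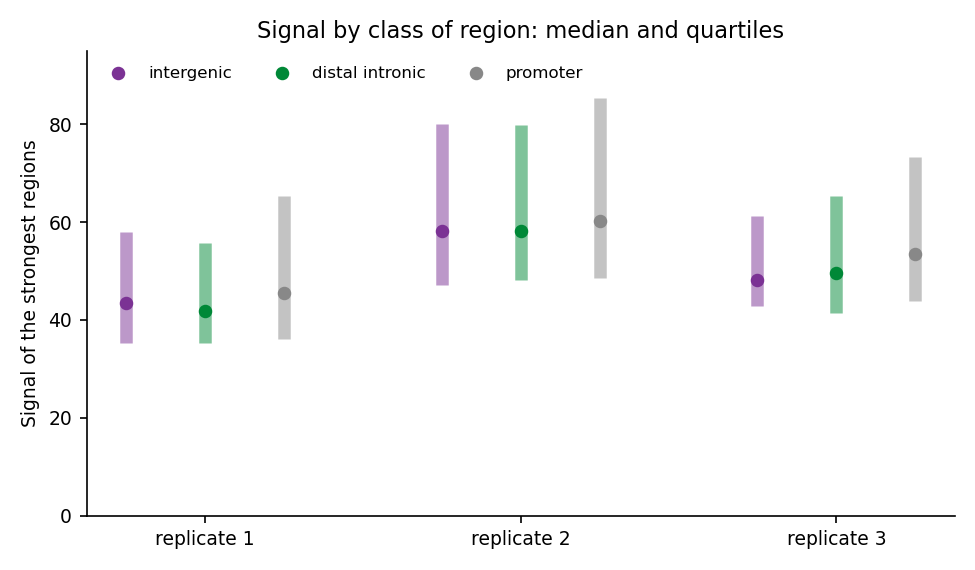
Signal of the 2239 strongest regions of each replicate list, split into intergenic, distal intronic and promoter regions. Points are medians and bars run from the first to the third quartile on a linear axis; the promoter median is the highest of the 3 in each replicate, and the intergenic and intronic medians change order.

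Recovery in single replicates was measured next. Among the strongest regions of replicates 1, 2 and 3, 74.6%, 85.0% and 74.2% were found (mean 77.9 ± 6.10, SD, n = 3). For promoter peaks the shares were 81.9%, 81.8% and 78.9%, and for intronic peaks 79.2%, 86.1% and 71.9%. Neither difference kept 1 sign over the replicates, with exact two-sided p = 0.5 and 0.75. All 3 replicates found 107 intergenic peaks (50.2%), against 54.6% of all 2239 peaks. A single peak, between Indy and lncRNA:CR45388 with a pooled signal of 109.4, was in none of them, and it was named for that reason after its values were seen. In the full lists 209 of the 213 overlapped a region of every replicate, but those lists hold background regions too.

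The nearest summit of each replicate list lay at a median of 15, 14 and 21 bp from the 213 summits, and 84.5%, 84.5% and 76.1% of the peaks had a replicate summit within 50 bp. Signal across the intergenic peaks had a Spearman rho of 0.657 between replicates 1 and 2 (n = 211 peaks), 0.513 between 1 and 3 (n = 210) and 0.453 between 2 and 3 (n = 210). These are given as descriptions, since the peaks share libraries and were chosen on the pooled signal. For 12 peaks the replicate region also covered another peak, so their replicate values are not their own.

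Arms of the genome differed. Per Mb of eligible intergenic sequence there were 8.34 peaks on 2L, 7.27 on 3L, 5.21 on 3R, 4.30 on 2R and 3.01 on the X, and the small chromosome 4 had 3 peaks, or 12.2 per Mb. In the replicates the X had 2.45, 3.58 and 3.20 per Mb (mean 3.08 ± 0.575, SD, n = 3) and 2L 8.79, 9.68 and 8.94 (mean 9.13 ± 0.479). No list placed a peak on the Y, and 2R and the X were the 2 lowest of the other arms in each replicate.

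The X held 16 of the 213 peaks, or 7.51%, against 14.6% of the eligible length without the Y, a ratio of 0.516. The replicate ratios were 0.435, 0.548 and 0.572. The same ratio was 1.12 for distal intronic peaks (replicates 1.12, 1.15 and 1.09) and 0.836 for promoter peaks (0.887, 0.895 and 0.790). The intergenic ratio was lower than the intronic one in every replicate list (mean difference -0.600 ± 0.0871, SD, n = 3, exact sign-flip p = 0.25, the smallest possible). Against promoters the difference was -0.339 ± 0.117, with the same sign in 3 of 3 and the same exact p = 0.25. This comparison was added after the counts by arm had been seen. Within 10000 bp of a TSS the intergenic ratio was 0.489, and within 5000 bp it was 0.540, so the low share was also present near genes. The labels give male and female embryos pooled.

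**Figure D4:**
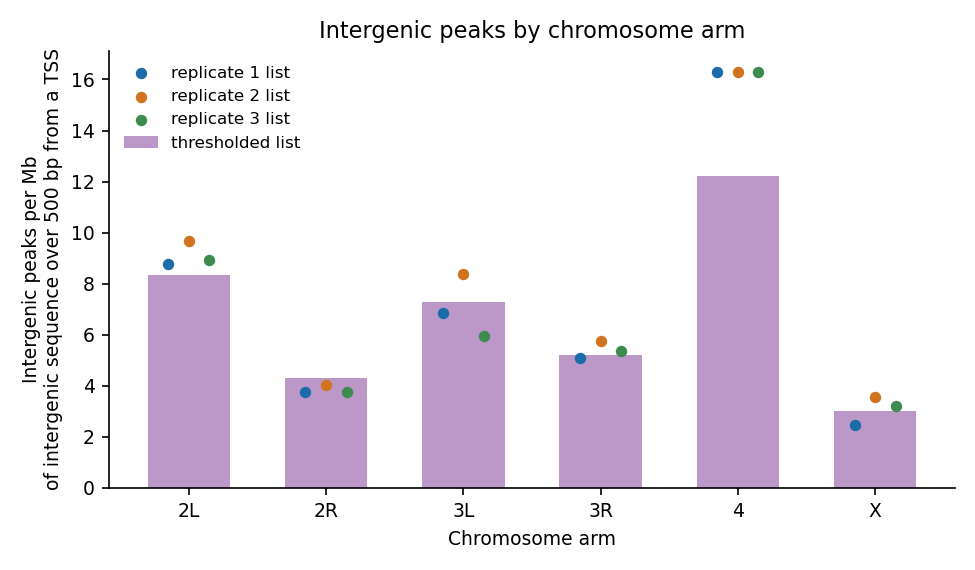
Intergenic peaks per Mb of intergenic sequence more than 500 bp from a TSS, for each chromosome arm except the Y, where no list had one. Bars are the thresholded list and points the 3 replicate lists, which coincide at 16.3 per Mb on chromosome 4 with 4 regions each; the X is the lowest arm at 3.01 per Mb.

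Summits were richer in A and T than their surroundings. Mean GC content of the printed kind of window, 100 bp to each side of the summit, was 38.1% (SD over the 213 windows 6.92), against 41.6% for windows centred 1000 bp to each side and 40.8% over all eligible intergenic windows. Replicate lists gave 39.2% against 42.2%, 39.1% against 41.6% and 36.6% against 40.9%. Summits were lower in each. The dip was narrow: in 51-bp windows GC was 37.2% at the summit. Promoter and distal intronic peaks had means of 36.2% and 37.5%, and the weaker intergenic regions had 40.1%.

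**Figure D5:**
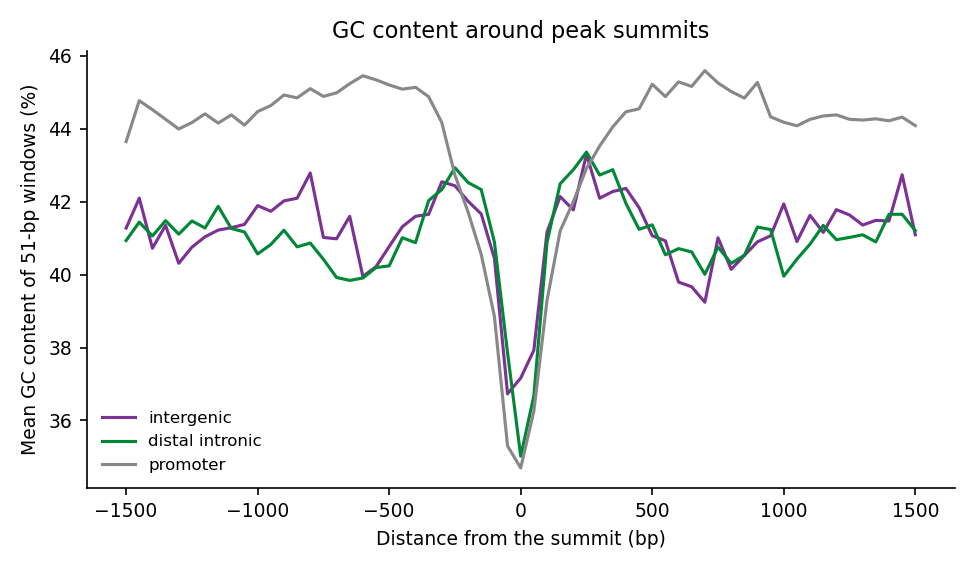
Mean GC content in percent of 51-bp windows against distance in bp from the summit, for intergenic, distal intronic and promoter peaks; the vertical axis does not start at 0. All 3 classes dip within about 100 bp of the summit, with 37.2% at the summit of intergenic peaks, and promoters stand on a GC-richer background.

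Of the motifs marked in the printed sequences, the AT-rich word AAATAT was the most frequent. It was in 47.4% of the member windows, 32.7% of the windows to the sides and 34% of all 177317 eligible intergenic windows of that length, with 42.4%, 43.3% and 57.8% in the replicate lists against 31.4%, 32.3% and 33.0% at their sides. It moves with base composition, and the part of the GC dip in it was not tested. TGATAA was in 17.4% of members, 11.8% of side windows and 12.3% of all windows, and the replicates gave 17.1%, 16.8% and 19.1% against 13.3%, 12.6% and 14.7%. GAGAG, as in the window beside jp, was in 23.9%, 17.8% and 20.8%. All 3 words were more frequent at summits than at the sides in each replicate list. They were not particular to intergenic peaks. AAATAT was in 46.0% of distal intronic and 51.7% of promoter peak windows, and TGATAA in 20.4% and 16.7%. GAGAG was in 22.8% of promoter peak windows, and in a larger share of distal intronic peak windows than of members.

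CAGCTG, present in the jp window, was rarer at members than around them. It was in 5 member windows (2.35%), against 7.29% at the sides and 6.92% of all windows. The replicates gave 3.90%, 2.52% and 4.90% against 8.78%, 7.90% and 7.33%, lower in each. In windows of 50 bp to each side the difference was smaller, 1.88% against 2.99%. At 100 bp to each side, CAGCTG was in 7.03% of distal intronic and 11.4% of promoter peak windows. Weaker intergenic regions had it in 7.47%. The promoter elements TATCGATA and GGTCACACT were rare at members, as in intergenic sequence at large. TATCGATA was in none of the 213 windows, which allows a share of up to 1.41% (3 counts, counting error only), and in 0.443% of all intergenic windows, while 6.68% of promoter peak windows held it. GGTCACACT was in 1 member window (0.469%), that between slp1 and slp2, in 0.0936% of all intergenic windows and in 2.91% of promoter windows. CGATA was in 21.1% of members, 20.9% of side windows and 35.5% of promoter windows. The replicates gave 19.0%, 21.4% and 19.1% against 18.6%, 19.9% and 21.7%, so replicate 3 went the other way, and over the peaks found in every replicate the share was 17.8%. CAGGTA was in 7.04% of members against 4.27% and 4.29%, but replicate 1 went the other way, with 3.41% against 5.59%.

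TATAAA was in 29.1% of members against 23.6% at the sides and 23.2% of all windows, and in replicate 2 the order was reversed, at 23.5% against 23.9%. CACGTG was in 1.88% of members against 3.27% and 2.21%, and lower at summits than at the sides in each replicate list. TAATTA was in 14.1% against 14.8% and 14.2%, but in replicate 3 it was higher at summits, at 15.2% against 14.4%. A match says only that the letters are in the window. Windows at least 50% soft-masked were rare at summits and beside them: 4 windows (1.88%), against 5.03% of side windows and 16.1% of all eligible windows. In the replicate lists the shares were 4.39%, 2.94% and 3.92%, against 4.79%, 4.06% and 4.19% at their sides. Partial masking was common, since only 30 of the 213 windows (14.1%) held no soft-masked base and the median masked share was 19.9%. In an annotated transposable element lay 1 summit.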

How the data were processed

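Binding was mapped by ChIP-seq in 3 biological replicates of 1 group. Per the deposited README files, the authors called regions on each replicate and on the replicates pooled against 1 control alignment, and passed the pooled regions through a threshold on the irreproducible discovery rate (IDR), which measures agreement between replicates. Which aligner, peak caller and IDR threshold were used is not given here, nor is any version. Each region of the dm6 lists has the signal value that the authors' caller gave, with no stated scale, the deposited −log10 q-value and a summit offset. Of the members, 153 share the highest −log10 q-value, so regions were ranked by signal. Lists on dm3 were not used here. Fragments were sheared to 200 to 800 bp, per the labels. Depth is unknown, so no interval that needs read counts is given.

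Summits were placed with Ensembl release 115 on dm6, in which transposable elements were not counted as genes, and sequences were read from the RefSeq dm6 assembly. Shares have exact Clopper-Pearson intervals at 95%. Classes were compared within each replicate, and the 3 differences were tested by an exact two-sided sign-flip permutation test, whose smallest p is 0.25. Nothing in the labels says that the replicates came from separate parents, so spread between them may be partly technical. The assignment of summits was tested on simulated data. Python 3.11.15, NumPy 2.4.6, SciPy 1.17.1, pandas 2.3.3 and matplotlib 3.10.9 were used.

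Members named are the 20 of highest signal found in every replicate, the 5 farthest from a TSS, those in gaps with 3 or more, the 3 just over and the 3 just under 500 bp, and up to 3 of each gene list by signal. The members, gene lists and motifs were chosen with earlier results of these data known. In the Notch list, 1 of 29 symbols was not matched. Alternatives covered the TSS window, the gene set, whole intervals in place of summits, stronger thresholds, the replicate lists and leaving out each replicate.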

Additional observations from a re-analysis of the deposited data

How the results depend on the processing

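The intergenic share of 9.51% moved with the definition. It was 13.8% with a TSS window of 250 bp, 7.28% with 1000 bp, 12.6% with protein-coding genes only and 7.77% when the whole interval had to lie outside genes and windows. It was 7.80% of the strongest 500 peaks (39 peaks), 8.50% of the strongest 1000 (85 peaks) and 10.6% in the list of replicate 2. The share of pooled intergenic regions past the threshold rose to 11.2% with a window of 250 bp. Asking for a peak in both remaining replicates left 122 to 140 intergenic peaks and shares of 8.68 to 9.30%. The difference in signal from intronic regions ranged from -0.0211 to 0.0287 on the log2 scale when 1 replicate was left out, and it was -0.0211 without replicate 1. The difference in recovery from intronic peaks ranged from -2.84 to 0.588 percentage points, was 0.588 without replicate 1 and was 0.480 with a window of 250 bp. These causes were not tested. Counting transposable elements as genes, an alternative chosen after seeing the data, left 209 peaks. Motif differences from the side windows were recomputed in narrower windows, against all intergenic windows and over the peaks found in every replicate. Of these 33 values 21 stayed within 1 SD of the replicates and 12 did not. Over the peaks found in every replicate TATAAA went from 5.49 to -0.254 percentage points and CGATA from 0.273 to -3.10. No paired analysis was possible because there is 1 group, so no second group shares replicate numbers with it. Classes of peaks were compared within each replicate. Read depth, and so how many weak intergenic regions were missed, is unknown.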

Other observations

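Transfer RNA genes were the neighbour on 1 side of 10 of the 213 peaks, 2.35% of all flanks counted once for each peak and side. Counted once for each gene, tRNA genes are 1.59% of annotated genes. They were looked at after the annotation of the peaks had been seen and are given as values only. In the gap between tRNA:Ser-GCT-2-2 and foxo, the transcription factor of insulin signalling, 2 peaks were found in every replicate. The stronger, 3292 bp from foxo, had a pooled signal of 224.5 and ranked 366, 758 and 451 in the replicate lists, and the other, 4662 bp from foxo, had 162.9 and ranked 1124, 871 and 1173. Between tRNA:Ile-TAT-1-2 and CG13898 there were 2 peaks, of which the one with 190.8 was found in every replicate and the one with 143.5 in 2. A peak 127 bp from CG8517 and 570 bp from tRNA:Ile-AAT-1-9 had 175.2 and was found in every replicate. Between noc, a zinc finger gene of head and appendage development, and tRNA:Pro-AGG-1-1 the pooled signal was 160.0 and the ranks were 367, 716 and 5138. The peak between lncRNA:CR45693 and tRNA:Gly-GCC-1-4 had 141.8, with ranks of 1253, 823 and 5849. The other 3 peaks, beside tRNA:Phe-GAA-1-6, tRNA:Phe-GAA-1-7 and tRNA:Ile-TAT-1-1, had pooled signals of 108.2 to 126.1 and were found in 1, 2 and 1 replicates.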
